A study of Mus musculus with 6 samples.

Results

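The IgLON genes encode a small family of neuronal adhesion molecules, and all 5 members, Iglon5, Lsamp, Ntm, Opcml and Negr1, were found by symbol among the 13170 genes of the expression table. The family was selected on the FPKM of 1 member, Iglon5, which had been noted as higher in every library of the high group, so its comparison between the groups is a description without a test. The other 4 members were taken by family membership. The libraries are poly(A) RNA profiles of brain tissue from adult male C57 mice, 3 from mice of high and 3 from mice of low sexual motivation, with no other allele or agent named for either group. The series title places the tissue in the medial amygdala, while the protocol for RNA extraction speaks of PrL, and the sources used here do not say whether a library holds 1 animal or a pool. The p-values therefore rest on the spread between libraries alone, which may be technical.

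IgLON proteins carry a few immunoglobulin-like domains and are held in the outer leaflet of the membrane by a glycosylphosphatidylinositol (GPI) lipid anchor, without a transmembrane segment. They bind one another in like and unlike pairs, on the same cell and between cells, and are known for effects on neurite growth and on the number of synapses. Lsamp takes its name from the limbic system, to which the amygdala belongs. Metalloproteases at the cell surface can release IgLON ectodomains.

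The 2 members that differed most between the groups, in opposite directions, were Iglon5 and Negr1, and the bases before their annotated starts are shown to place them in the genome. Each line gives the 250 bases upstream of the start from RefSeq on GRCm38.p6, 5′ to 3′ on the gene's strand, with capitals marking each match to the GC box GGGCGG or its reverse complement CCGCCC. The Iglon5 window is chr7:43490212-43490461 on the minus strand and the Negr1 window is chr3:156561544-156561793 on the plus strand.
Iglon5: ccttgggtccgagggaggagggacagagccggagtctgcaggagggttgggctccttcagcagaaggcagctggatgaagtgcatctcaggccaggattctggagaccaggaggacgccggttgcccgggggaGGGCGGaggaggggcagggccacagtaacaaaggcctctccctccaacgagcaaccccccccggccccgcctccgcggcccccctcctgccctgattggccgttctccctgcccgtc
Negr1: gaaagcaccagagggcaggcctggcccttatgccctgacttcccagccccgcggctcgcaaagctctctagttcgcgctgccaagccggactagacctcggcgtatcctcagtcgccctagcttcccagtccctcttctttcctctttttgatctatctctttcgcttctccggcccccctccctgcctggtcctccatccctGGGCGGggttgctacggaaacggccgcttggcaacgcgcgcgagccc
Both windows were rich in G and C, at 68.8% for Iglon5 and 63.6% for Negr1, where the median of 32851 such windows was 52.4%. Each held 1 GC box match, as 32.7% of all windows held at least 1. CpG dinucleotides numbered 13 in the Iglon5 window and 19 in the Negr1 window, against a median of 6. Both windows thus lay above the median in GC content and in CpG number. Such values were not confined to these genes: 1 Ntm window had 53.6% GC, 14 CpG and 1 GC box match, and 1 Lsamp window had 53.2% GC and 12 CpG. A second Lsamp window had 56.4% GC and 3 CpG, and a second Ntm window 46.8% and 2. The Opcml window had 52.0% GC and 8 CpG.

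The genes themselves are unlike in size. In the GENCODE annotation of GRCm38, Iglon5 spans 17.2 kb of chromosome 7 (43472904 to 43490075, minus strand), while Negr1 spans 754.7 kb of chromosome 3 (156561794 to 157316445, plus strand) and Lsamp 2197 kb of chromosome 16 (39984361 to 42181679, plus strand). Opcml (27790775 to 28925410, plus strand) and Ntm (28994750 to 29963141, minus strand) are neighbours on chromosome 9, with their 3′ ends facing each other across 69.3 kb. The 4 large genes each overlap at least 1 annotated gene on the opposite strand, and Iglon5 overlaps none. On the same strand, Negr1 overlaps 8 annotated genes, Lsamp 5, Opcml 2 and Ntm 1. These are overlaps of whole gene spans, introns included, and overlap of exons was not examined. The sources used here do not say whether quantification took strand into account, so whether the overlapping genes add to the FPKM of the large genes is unknown.

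Expression is given in FPKM, fragments scaled to transcript length and to the mapped fragments of the library, which is a per-length scale. Log2 differences are high minus low on log2(FPKM + 1), with the standard error (SE) from limma, and adjusted p-values are Benjamini-Hochberg values over 12026 genes with a mean of at least 1 FPKM. All 5 members passed that filter, with a lowest value of 8.18 FPKM in any library. Of the 12026 genes, 0 passed an adjusted p under 0.05, or 0.00%, and no IgLON gene passed. An unadjusted p under 0.05 was found for 1009 of them, 8.39%. With 1 library left out, that count ran from 595 without low library 1 to 1324 without high library 2.

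Iglon5, whose protein is the target of autoantibodies in a human disorder of sleep and movement, was higher in the high group. Its FPKM was 17.6, 17.5 and 18.1 in high libraries 1 to 3 and 12.4, 13.0 and 13.9 in low libraries 1 to 3. The high libraries had a coefficient of variation of 1.71%, and the groups were separated by a gap of 3.56 FPKM. Group means were 17.7 ± 0.304 and 13.1 ± 0.750 FPKM (SD, n = 3), a ratio of 1.35 and a log2 difference of 0.41 (SE 0.0637). These are the values for which the gene was noted, so they support nothing by themselves. Across tested genes 0.948% had a larger log2 difference.

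Negr1, a regulator of neurite growth whose human locus is linked to body weight, was lower in every high library. It stood at 16.8, 14.2 and 17.9 FPKM in high libraries 1 to 3 and at 23.9, 22.9 and 20.2 FPKM in low libraries 1 to 3. The groups did not overlap, with high library 2 lowest and low library 3 nearest to the high group. The means were 16.3 ± 1.88 and 22.3 ± 1.87 FPKM (SD, n = 3), a ratio of 0.730, and the log2 difference of −0.43 (SE 0.0976) had an adjusted p of 0.496 by limma. Its unadjusted p was 0.00214, and 1.21% of tested genes had a smaller log2 difference. Without high library 2 the log2 difference was −0.35, and without high library 3 it was −0.50. In size it was close to the difference of Iglon5, with the opposite sign.

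Lsamp, which acts in the targeting of limbic axons, was also lower in every high library, but by a small margin. Its FPKM was 18.4, 21.2 and 20.2 in high libraries 1 to 3 and 23.8, 21.6 and 22.0 in low libraries 1 to 3. The gap between the groups was 0.419 FPKM, between high library 2 and low library 2, which is less than the SD within either group. Means were 19.9 ± 1.43 and 22.5 ± 1.16 FPKM (SD, n = 3), with a log2 difference of −0.17 (SE 0.0731; adjusted p = 0.596 by limma). The 95% interval of the log2 difference, −0.33 to 0.0027, included 0.

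Ntm, which encodes neurotrimin, was the steadiest member. High libraries 1 to 3 had 18.2, 18.0 and 17.5 FPKM and low libraries 1 to 3 had 17.6, 18.1 and 17.8 FPKM, so that all 6 values lay within 17.5 to 18.2 and the groups overlapped. The log2 difference was 0.0045 (SE 0.0557; adjusted p = 0.983 by limma), with a 95% interval of −0.12 to 0.13, or ratios on the FPKM + 1 scale of 0.918 to 1.10. Opcml, first described as an opioid-binding protein, was the least abundant member and overlapped too, with 9.51, 8.22 and 8.18 FPKM in high libraries 1 to 3 against 8.73, 8.19 and 8.54 FPKM in low libraries 1 to 3. High library 1 was the highest of the 6, and the other high libraries lay at the low end of the range. The log2 difference was 0.02 (SE 0.0758; adjusted p = 0.948 by limma), with a 95% interval of −0.15 to 0.20. The intervals of these neighbours on chromosome 9 end short of the −0.43 of Negr1.

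**Figure D1:**
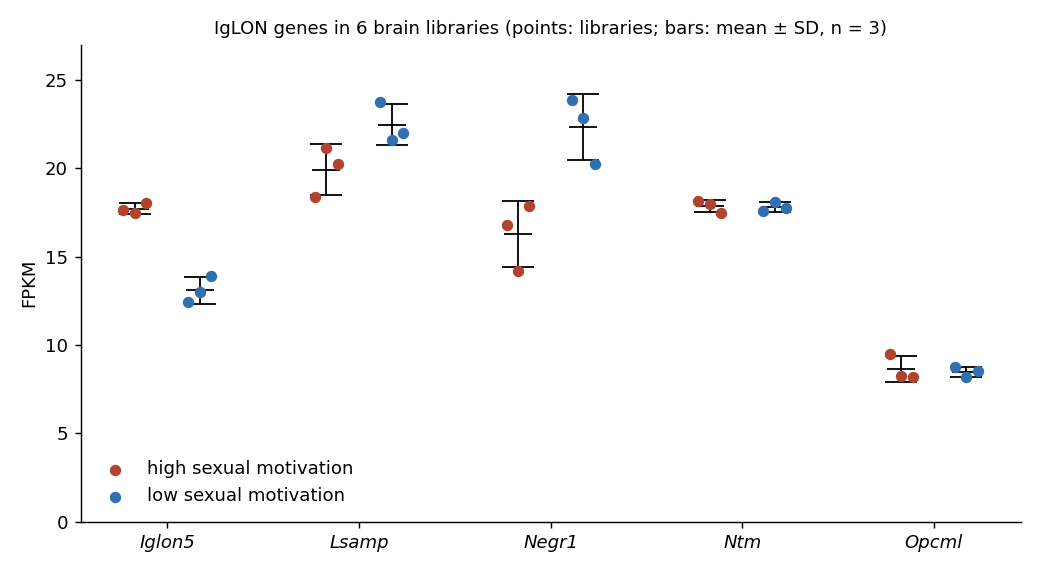
FPKM of the 5 IgLON genes (y axis) in 3 high (red) and 3 low (blue) libraries, with points for libraries and bars for the mean ± SD. Iglon5 lies at 17.5 to 18.1 in the high and 12.4 to 13.9 in the low libraries, Negr1 and Lsamp lie lower in the high libraries, and Ntm and Opcml overlap.

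The groups did not overlap in 3 of the 5 members, 1 higher and 2 lower, where 14.9% of tested genes had separate groups, 7.33% higher and 7.61% lower. Iglon5 is 1 of the 3 by the way it was chosen, and the other 2, Negr1 and Lsamp, are among 4 genes. With so few members, nothing is read from that count. The median log2 difference of the 5 members was 0.0045, against 0.00018 over all tested genes, and it was −0.08 over the 4 members without Iglon5.

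Because the differences had opposite signs, the summed FPKM of the family differed less than its make-up. The sum over 5 genes was 79.0 to 81.8 FPKM in the high group against 82.5 to 86.3 FPKM in the low group, separate by a narrow margin. Iglon5 made up 21.9%, 22.1% and 22.1% of that sum in high libraries 1 to 3 and 14.4%, 15.5% and 16.9% in low libraries 1 to 3. The corresponding shares of Negr1 were 20.8%, 18.0% and 21.9% in the high group against 27.6%, 27.3% and 24.5% in the low group. Iglon5 thus exceeded Negr1 in each high library, with a ratio of Iglon5 to Negr1 of 1.01 to 1.23, and was well below it in each low library, with a ratio of 0.520 to 0.687. Every share has Iglon5 in its sum, and with it the values for which that gene was chosen, so the shares and ratios are descriptions. The sum without Iglon5 was 61.6 to 63.8 FPKM in the high and 68.6 to 73.9 FPKM in the low libraries. The shares of Lsamp, Ntm and Opcml overlapped between the groups.

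**Figure D2:**
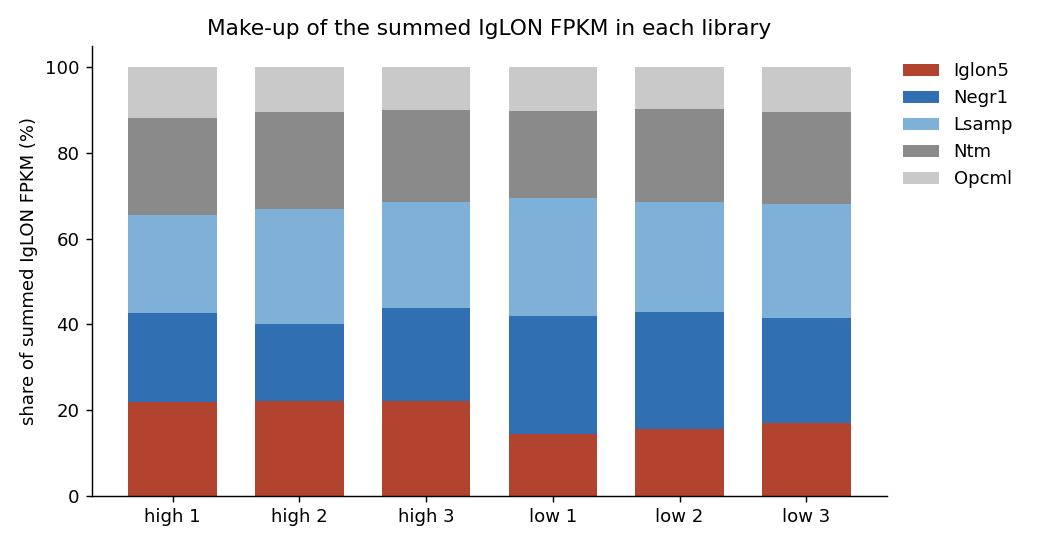
Share of the summed FPKM of the 5 IgLON genes (y axis, %) that each gene made up in each library (x axis). The Iglon5 segment is 21.9% to 22.1% in the high and 14.4% to 16.9% in the low libraries, and the Negr1 segment is 18.0% to 21.9% and 24.5% to 27.6%.

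By mean FPKM over the 6 libraries the order was Lsamp (21.2), Negr1 (19.3), Ntm (17.8), Iglon5 (15.4) and Opcml (8.56). Pairs with Iglon5 carry the values that chose it and were not tested: Iglon5 exceeded Opcml in 6 of 6 libraries, by a mean log2 ratio of 1.04 in the high and 0.62 in the low libraries, and Ntm exceeded Iglon5 in 5 of 6, by 0.0127 and 0.45. The other 2 neighbouring pairs were compared within libraries by a 2-sided exact permutation test of sign flips, whose smallest possible p with 6 libraries is 0.0313. Lsamp exceeded Negr1 in 4 of 6 libraries (exact p = 0.125, adjusted p = 0.250) and Negr1 exceeded Ntm in 4 of 6 (exact p = 0.469, adjusted p = 0.469). Neither pair was ordered beyond its spread over the 6 libraries, a spread that holds the difference between the groups. The mean log2 ratio of Lsamp to Negr1 was 0.30 in the high and 0.01 in the low libraries, and that of Negr1 to Ntm was −0.14 and 0.32. The order differed by group: in all 3 low libraries Lsamp and Negr1 lay above Ntm, and Ntm above Iglon5, while in 2 of the 3 high libraries Ntm and Iglon5 lay above Negr1, and in high library 3 Iglon5 and Negr1 lay above Ntm.

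Across genes, the log2 difference between the groups varied with base composition, and the libraries differed in cell type markers, which are described below. The longest annotated Iglon5 transcript has 2622 bases and a GC content of 60.2%, which 4.39% of tested genes exceed, whereas those of Lsamp (8794 bases, 43.7%), Ntm (3165 bases, 43.3%), Opcml (6676 bases, 42.9%) and Negr1 (4983 bases, 43.0%) are AT-rich beside the median of 50.2%. Across 11924 tested genes, which are not independent replicates, the log2 difference between the groups had a Spearman correlation of 0.387 with GC content and of −0.225 with transcript length. The median log2 difference was −0.07 among 2206 genes of 40% to 45% GC and 0.06 among 581 genes over 60% GC. Within those ranges, 0.907% of the genes were lower than Negr1 and 2.07% were higher than Iglon5, while Lsamp had 19.6% below it.

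After removal of a spline trend on GC content and transcript length from each library, Iglon5 had a log2 difference of 0.36 (SE 0.0607) and Negr1 of −0.35 (SE 0.0734; adjusted p = 0.464 by limma). Lsamp moved to −0.09 (SE 0.0860, adjusted p = 0.842 by limma). That was about as far from 0 as Ntm at 0.07 (SE 0.0590, adjusted p = 0.819 by limma) and Opcml at 0.11 (SE 0.0741, adjusted p = 0.762 by limma) on the other side. The part of GC content and transcript length in the IgLON values was not tested.

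**Figure D3:**
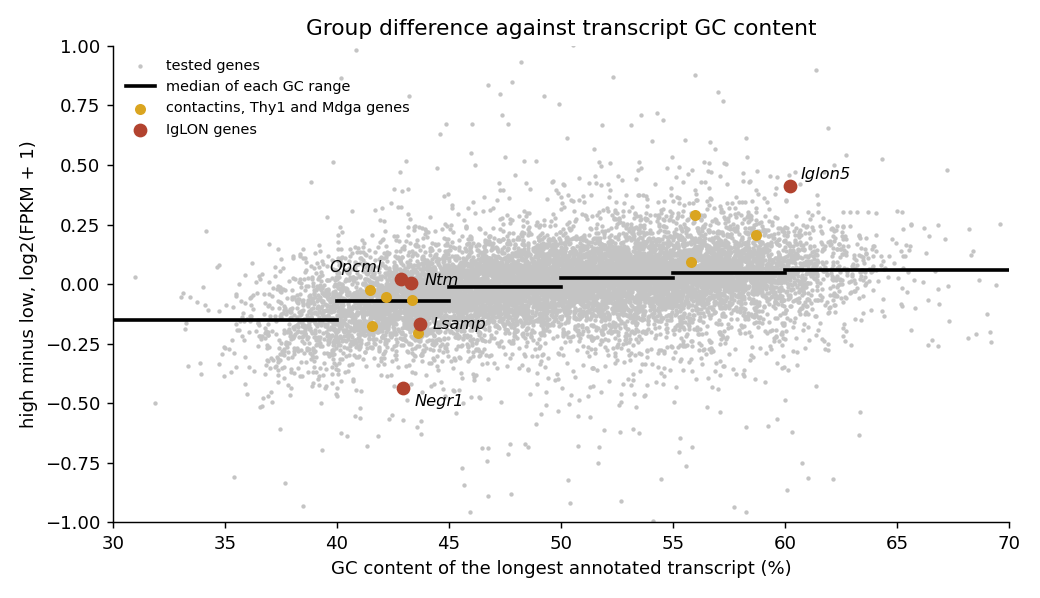
Log2 difference between the groups (y axis, high minus low on log2(FPKM + 1)) against the GC content of the longest annotated transcript (x axis, %) for tested genes, with black lines for the median of each GC range; 50 genes lie outside the axes. Iglon5 (60.2% GC) lies above and Negr1 (43.0% GC) below the median of its range.

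The libraries span a relative depth of 0.954 to 1.33, estimated from the spacing of low FPKM, with high library 2 deepest, and absolute depth is unknown. Neuronal genes were abundant throughout, with the synaptic gene Snap25 at 238 ± 22.7 and 233 ± 6.34 FPKM (high and low, SD, n = 3), and the summed FPKM of 10 neuronal markers overlapped between the groups (1162 to 1325 against 1140 to 1214). The sum of 7 markers of GABA neurons was 628.4 to 679.1 in the high and 588.8 to 591.8 in the low libraries, with 5 markers higher and 2 lower. Only the neuropeptide gene Sst (415 ± 8.69 against 365 ± 18.2) had separate groups, as 14.9% of all tested genes had. Without Sst the sums overlapped (218.0 to 254.2 against 208.2 to 246.5). Of 10 listed ependymal markers 8 were in the table, and their sum was 12.2 to 14.2 against 21.9 to 42.6 FPKM. All 8 were lower in the high group, and 0 passed. Separate groups were found in 7 of the 8, where 7.61% of all tested genes were separate and lower. Choroid plexus markers summed to 1341 and 4168 FPKM in low libraries 1 and 3, mostly Ttr, and to 40.9 to 110.7 in the other 4 libraries. In a fit of the high libraries against low library 2 alone, whose spread is taken from the high group, the log2 differences were 0.42 for Iglon5, −0.47 for Negr1 and −0.11 for Lsamp. Meningeal markers were higher in 6 of 6 tested genes, at a median log2 difference of 0.75, with 0 separate where 14.9% of all tested genes were. Ogn was at 6.86 ± 6.79 against 1.99 ± 1.16 FPKM (SD, n = 3). The meningeal markers summed to 9.06 to 45.4 FPKM in the high and 7.59 to 15.9 FPKM in the low libraries. Among 9 microglial markers 6 were higher and 3 lower, with C1qb at 39.4 ± 0.825 against 34.8 ± 1.21 FPKM, and their sums overlapped (173.7 to 180.9 against 159.7 to 178.2). Of the 9, 4 had separate groups, 3 higher and 1 lower, where 14.9% of all tested genes had. The part of these cell type markers in the IgLON values was not tested, and in bulk tissue fewer cells of a type and less RNA per cell cannot be told apart.

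**Figure D4:**
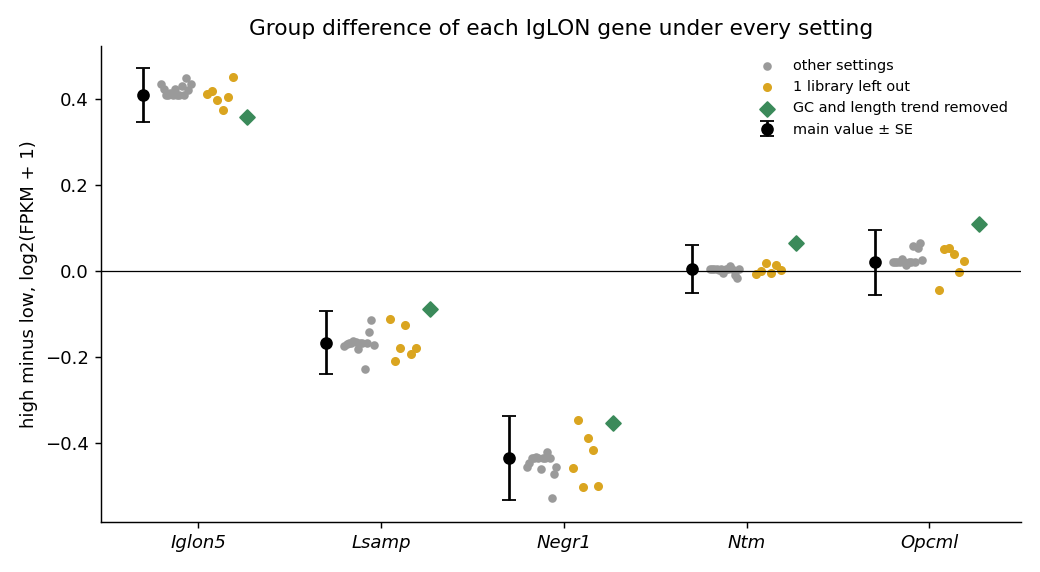
Log2 difference (y axis, high minus low on log2(FPKM + 1)) of each IgLON gene in the reported fit (black, ± SE), with 1 library left out (yellow), with the GC and length trend removed (green) and under the other settings (grey). Iglon5 stays between 0.36 and 0.45 and Negr1 between −0.53 and −0.35, while Ntm and Opcml lie on both sides of 0.

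For each member, the 3 named genes with the most similar profile over the 6 libraries were taken, by Pearson correlation of log2(FPKM + 1). The correlations covered the 7461 other genes with a mean of at least 5 FPKM, and predicted or unnamed gene models were dropped before the 3 were taken. These correlations are over 6 libraries that hold the group difference, and are descriptions. Iglon5 was most like Srxn1, a reductase of oxidized peroxiredoxins (r = 0.993), Pan2, a subunit of a poly(A) nuclease (r = 0.992), and Pcyt2, an enzyme of phosphatidylethanolamine synthesis (r = 0.989). Their differences were smaller than that of Iglon5, with Pcyt2 at 25.6 ± 0.267 against 21.8 ± 0.763 FPKM. Negr1 was most like Ppp4r2, a regulatory subunit of protein phosphatase 4 (r = 0.996), Uri1 (r = 0.991) and Armc1 (r = 0.990), with Ppp4r2 at 7.63 ± 0.368 against 8.98 ± 0.334 FPKM. Lsamp was most like Sipa1l3 (r = 0.987), Anapc7 (r = 0.976) and Syt16 (r = 0.975). Ntm was most like Rhobtb2 (r = 0.981), Ier5 (r = 0.963) and Lamc1 (r = 0.959), and Opcml was most like Sun2 (r = 0.974), Nutf2 (r = 0.962) and Tlnrd1 (r = 0.961). No IgLON gene was among the 3 genes nearest to another. Among the members, the correlation over the 6 libraries was −0.898 for Iglon5 with Negr1, −0.799 for Iglon5 with Lsamp and 0.623 for Lsamp with Negr1. It was −0.486 for Lsamp with Ntm, −0.462 for Lsamp with Opcml and 0.362 for Ntm with Opcml. The remaining pairs lay between −0.272 and 0.115.

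Other adhesion molecules of the immunoglobulin superfamily with a GPI anchor showed a mixed pattern as well. Of 8 tested genes, 3 were higher and 5 lower in the high group, 0 passed, and the median log2 difference was −0.04. Separate groups were found in 2 of them, where 14.9% of all tested genes had such groups. Cntn1, a contactin of axons and of the paranodal junction, was lower in every high library, at 25.5, 23.6 and 26.2 FPKM against 29.8, 27.4 and 30.1 (log2 difference −0.20, SE 0.0676; adjusted p = 0.564 by limma). Cntn2, the contactin next to the paranodes of myelinated axons, was higher in every high library, at 17.9, 13.7 and 16.5 FPKM against 12.8, 12.4 and 13.4 (log2 difference 0.29, SE 0.0957; adjusted p = 0.564 by limma). Beside Cntn2, all 10 listed oligodendrocyte markers were higher in the high group, 5 with separate groups where 7.33% of all tested genes were separate and higher, though their summed FPKM overlapped (384.1 to 456.2 against 350.5 to 387.4). The GC contents of the longest transcripts were 43.6% for Cntn1 and 56.0% for Cntn2. The groups overlapped for the other 6: Thy1, the most abundant of them (250.4 against 234.6 FPKM), Cntn3, Cntn4, Cntn6, Mdga1 and Mdga2.

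Among 30 transmembrane adhesion genes of the superfamily, 15 were higher and 15 lower, 0 passed, 6 had separate groups (where 14.9% of all tested genes had), and the median log2 difference was 0.0034. Igsf9b, an adhesion molecule of inhibitory synapses, was at 6.90, 7.10 and 6.42 FPKM in the high and 4.49, 5.23 and 5.42 FPKM in the low libraries (log2 difference 0.37, SE 0.0833; adjusted p = 0.496 by limma). Nectin1, a junction protein, was at 9.10, 12.2 and 9.20 FPKM against 14.3, 12.4 and 14.7 (log2 difference −0.41, SE 0.116; adjusted p = 0.548 by limma). Both had separate groups, Nectin1 by a small gap between high library 2 and low library 2. Cadm2, a synaptic cell adhesion molecule, was lower in every high library with high library 2 far below the rest, at 10.3, 5.12 and 9.43 FPKM against 11.2, 11.9 and 11.2 (log2 difference −0.47, SE 0.206; adjusted p = 0.596 by limma). The longest Cadm2 transcript has a GC content of 36.9%, and the median log2 difference of genes under 40% GC was −0.15. The 8 GPI-anchored and 30 transmembrane genes ran from −0.47 to 0.37 in log2 difference, and none passed. Iglon5 at 0.41 and Negr1 at −0.43 are the ends of only 5 genes, and Iglon5 was chosen for its values. The 2 ranges are therefore not compared.

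**Figure D5:**
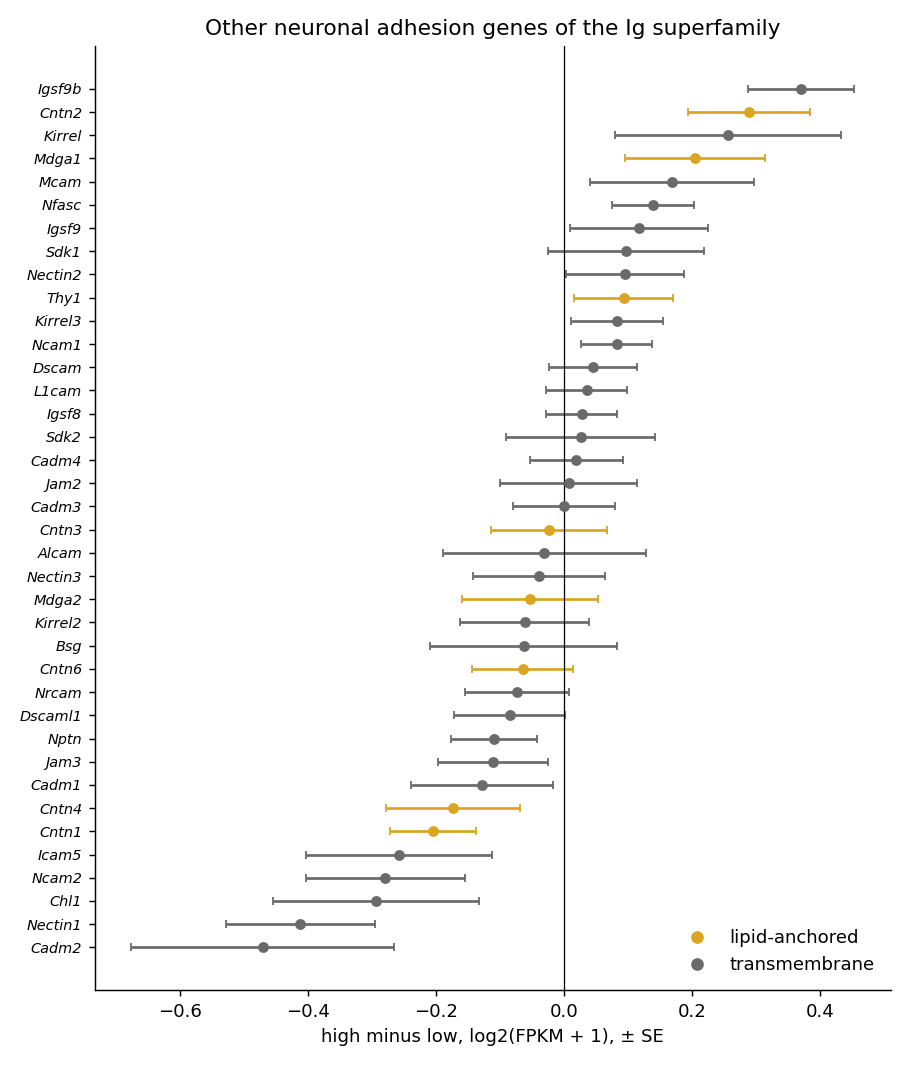
Log2 difference (x axis, high minus low on log2(FPKM + 1), ± SE) of 8 GPI-anchored (yellow) and 30 transmembrane (grey) adhesion genes of the immunoglobulin superfamily other than IgLON genes. They run from −0.47 for Cadm2 to 0.37 for Igsf9b, with as many transmembrane genes above 0 as below.

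The machinery that makes, trims and sheds GPI-anchored proteins showed no member past the test. Of 26 tested genes of GPI anchor synthesis and transfer, 14 were higher and 12 lower, with a median log2 difference of 0.01. Pigo, which adds a bridging phosphoethanolamine, stood at 7.81 ± 0.606 against 6.72 ± 0.451 FPKM (SD, n = 3), Pigf at 4.34 ± 0.502 against 5.28 ± 0.578, and Pigw at 0.969 ± 0.296 against 1.43 ± 0.316. Of 13 tested metalloproteases and their inhibitors, 8 were higher and 5 lower, and the median was 0.03. Of these, 0 had separate groups, where 14.9% of all tested genes had. Adam9 had the smallest p among them, at 11.0 ± 1.18 against 12.4 ± 0.480 FPKM, followed by the gelatinase gene Mmp2 (1.17 against 1.64) and by Mmp17 (36.3 against 32.4). Of 4 genes for enzymes that can cleave the anchor or resemble such enzymes, 3 were higher and 1 lower, with the phospholipase gene Gpld1 at 10.3 ± 0.832 against 9.01 ± 0.588 and Gdpd2 at 5.54 ± 0.736 against 4.87 ± 0.192. Both reported binding partners of NEGR1 overlapped between the groups, with the growth factor receptor gene Fgfr2 at 2.86 against 3.00 FPKM and the cholesterol transport gene Npc2 at 8.89 against 9.48 FPKM.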

How the data were processed

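Per the labels' protocols, poly(A) RNA was selected on oligo(dT) beads and made into libraries with a dUTP-marked second strand. The authors deposited 1 table of FPKM with 1 column per library, and per the submitters' processing notes fastp, HISAT2, StringTie and GRCm38 were used, with no versions or settings. The table has 13170 genes, 0 values at 0 and a lowest mean of 0.500 FPKM. The deposited log2 fold change and the deposited p-value of the authors were not used for any result.

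FPKM carry no counts, so log2(FPKM + 1) was fitted by limma (3.58.1, under R 4.3.3) using a variance trend, over 12026 genes with a mean of at least 1 FPKM and with 3 libraries per group. GC content and length are those of the longest GENCODE M21 transcript, available for 11924 tested genes, and the trend used splines with 5 degrees of freedom. Python 3.11.15 with pandas 2.3.3 and scipy 1.17.1 served for the rest. All 5 IgLON symbols matched the annotation and the RefSeq promoter table. The members, the gene lists and the rules were chosen with earlier results of these data known. Genes were named by rule: the members, the members' 3 nearest profiles, the tested GPI-anchored adhesion genes, and up to 3 genes of each other related list with the smallest p (2 for short lists). From each marker list printed, the most abundant gene was to be named, which was Rsph1 for ependyma and Mbp for oligodendrocytes. The lists of oligodendrocyte precursors, astrocytes, endothelium and glutamate neurons are not described. Their summed FPKM overlapped between the groups, but so did that of several lists that are described. The alternatives were other pseudocounts, filters, scalings, fitting options, covariates and each library left out.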

Additional observations from a re-analysis of the deposited data

How the results depend on the processing

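Under 21 alternative settings limma called 0 genes each time, and each library left out in turn gave 0 to 0. At an unadjusted p under 0.05 the count was not stable, with 1009 genes in the reported fit. That count was 595 without low library 1, 1324 without high library 2 and 1567 with array weights. With a mean of at least 5 FPKM, where fewer genes were tested, 633 were found. The cause was not tested. Iglon5 kept its sign under all 21, with log2 differences of 0.36 to 0.45, as did Negr1 (−0.53 to −0.35; adjusted p 0.153 to 0.979) and Lsamp (−0.23 to −0.09; adjusted p 0.254 to 0.979). Leaving out 1 library gave 0.38 to 0.45 for Iglon5, −0.50 to −0.35 for Negr1 and −0.21 to −0.11 for Lsamp. As the groups did not overlap in these genes, leaving out 1 library could not reverse a sign. Settings that altered only the set of genes, the variance trend, the robust option of the fit or the block returned the same difference, so the kept signs are no independent support. Array weights did alter the differences, to 0.43 for Iglon5, −0.42 for Negr1 and −0.23 for Lsamp. Ntm and Opcml, close to 0, changed sign: Ntm to −0.0034 with mitochondrial genes removed, −0.0089 with the choroid plexus score as covariate and −0.0169 with low libraries 1 and 3 left out, and, with 1 library left out, Ntm ranged from −0.00696 to 0.0197 and Opcml from −0.0434 to 0.0542. In the high libraries alone the log2 ratio of Negr1 to Ntm was −0.14, where it was 0.09 over all 6. Negr1 averaged 16.3 FPKM in the high and 22.3 FPKM in the low libraries, while Ntm averaged 17.9 and 17.8 FPKM. The cause of the difference in Negr1 was not tested.

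With the replicate number as a block, 0 genes passed and the log2 differences were those of the reported fit, with adjusted p-values of 0.757 for Negr1 and 0.757 for Lsamp. Same-numbered libraries did not deviate together (correlations −0.094, −0.206 and −0.157), so the numbers were not taken to pair the libraries. With 3 libraries a group, and absolute depth unknown, no interval for counting error is given.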
